A study of Homo sapiens and Mus musculus with 12 samples.

Results

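SUCNR1 encodes the succinate receptor, a G protein-coupled receptor of the plasma membrane that binds extracellular succinate. Its row in the human count table and the row of its mouse counterpart, Sucnr1, are described here across all 12 libraries, as 2 of the 40325 rows of both tables (18304 human and 22021 mouse). The human row was chosen by its counts in this comparison, for a near-silent level in control cells and a large increase with BIX-01294, so that the human difference is given as a description without a test. The mouse row was not used in that choice and was tested.

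NK92MI, an established line of human NK cells that supplies itself with IL-2, was treated with BIX-01294 (BIX, 3 libraries), a small-molecule inhibitor of the histone methyltransferase EHMT2, or with the solvent DMSO (3 libraries). The labels give neither dose nor duration for these libraries, whereas for its functional assays of this line the study describes several days at a submicromolar concentration. The DMSO libraries are called a, b and c because their columns carry no link to a numbered sample. In mouse, splenic NK cells were sorted as CD3-NK1.1+ cells from age- and sex-matched adult C57BL/6J mice. WT mice (3 replicates) carried Ehmt2 flox/flox alleles, and KO mice (3 replicates) carried the same alleles and Ncr1-iCre, a Cre recombinase driven from the gene of the NK receptor NKp46. The sample titles name EHMT2 for the KO mice whereas the genotype field reads Ezh2-KO, and the grouping follows the titles. Nothing states that the libraries of a group came from separate cultures or animals, and p-values then measure the spread between these libraries only.

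Succinate is an intermediate of the tricarboxylic acid cycle, made by succinyl-CoA ligase and consumed by succinate dehydrogenase. When it leaves the cell it can signal through SUCNR1, which couples to inhibitory G proteins and, in some cells, to Gq. The receptor is best known in kidney, adipose tissue, macrophages and dendritic cells, and its gene lies beside a cluster of P2Y purinergic receptor genes, to which it is related in sequence.

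In the GENCODE annotation of GRCh38, SUCNR1 (ENSG00000198829.6) occupies chr3:151873643-151884619 on the plus strand and has 3 exons with a joint length of 4181 bp. The coding sequence takes 15 bp of the second exon and 987 bp of the third, whose remaining 3074 bp are 3' UTR. The 250 bases before the start site, from chr3:151873393-151873642 in GRCh38.p14 (plus strand, RefSeq), are shown because the human gene started from so low a level. Capitals mark the octamer ATGCAAAT, the motif bound by POU-family factors.

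SUCNR1 upstream: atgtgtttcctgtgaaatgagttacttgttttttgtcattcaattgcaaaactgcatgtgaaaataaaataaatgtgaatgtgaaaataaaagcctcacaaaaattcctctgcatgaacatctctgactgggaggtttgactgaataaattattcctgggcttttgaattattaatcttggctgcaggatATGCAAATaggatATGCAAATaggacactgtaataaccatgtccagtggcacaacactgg

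The octamer was found 2 times on the plus strand, at 60 to 53 and at 47 to 40 bases before the start site. Searched on both strands, at least 1 octamer was held by 573 of 35116 RefSeq promoters of this length (1.63%) and 2 or more by 13 (0.037%). No match was found for the TATA box (TATAAA, held by 10.7% of these promoters), the CCAAT box (32%), the AP-1 site (TGANTCA, 6.57%), the GC box (GGGCGG, 42.6%) or the RUNX core (TGTGGT, 11%). The window had a GC content of 35.2% against a median of 58%, and 6.19% of promoters were as low. It had 0 CpG dinucleotides against a median of 11, as did 6.06% of promoters. Among 9816 tested genes with such a sequence, 122 held an octamer and 7 of these, SUCNR1 included, were upregulated with BIX (5.74%, against 6.22% of all 9816). Of the 115 tested genes with 0 CpG, SUCNR1 included, 19 were upregulated (16.5%, against the same 6.22%) and 8 downregulated. Of all 12727 tested genes, 5.43% were downregulated. A link between these windows and the change in RNA was not tested. These shares describe the windows, and no binding was measured.

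In NK92MI cells SUCNR1 went from a few reads per library to nearly 200. The DMSO libraries a, b and c held 12, 8 and 9 SUCNR1 reads, and BIX replicates 1, 2 and 3 held 202, 196 and 175. Library totals lay between 16579469 and 17165446, so that the libraries were of similar depth. After TMM normalization these counts corresponded to 0.698, 0.468 and 0.533 CPM (counts scaled to the normalized library size) in DMSO and to 12.3, 11.5 and 10.3 CPM in BIX. Every BIX library lay above every DMSO library and the groups did not overlap. The means were 0.566 ± 0.119 CPM (SD, n = 3) and 11.4 ± 0.991 CPM (SD, n = 3), a ratio of 20.1. Over the 9 pairs of a BIX and a DMSO library the ratio ran from 14.8 to 26.3, and the fitted log2 fold change was 4.31 (SE 0.22, the standard error of the fit).

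**Figure D1:**
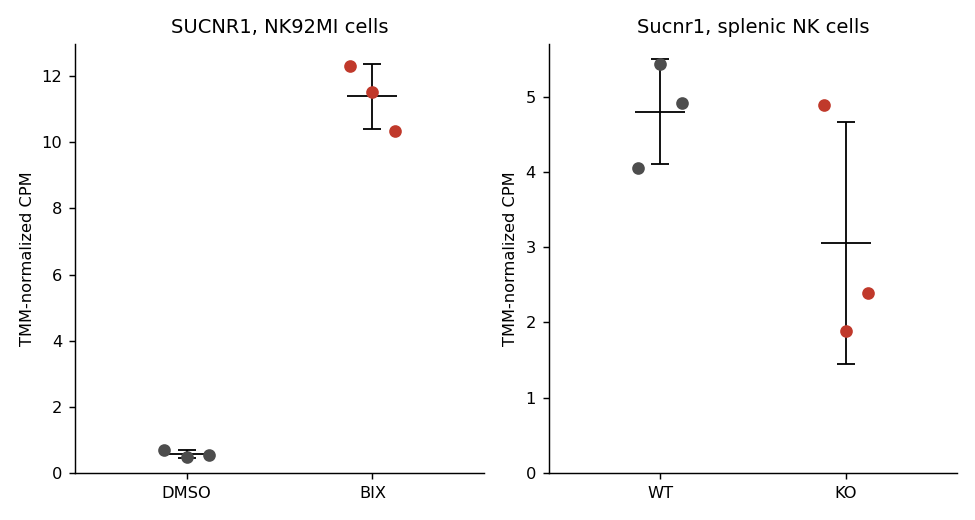
TMM-normalized CPM of SUCNR1 in NK92MI libraries (DMSO, BIX) and of Sucnr1 in splenic NK cell libraries (WT, KO), 1 point per library, with the mean and SD of 3 libraries. The human groups are apart, at 0.468 to 0.698 and 10.3 to 12.3 CPM, whereas KO replicate 1 at 4.90 CPM lies among the WT libraries.

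The libraries of a human group differed little in this gene. The SD of the counts was 14.2 in BIX against 13.8 from counting alone (the square root of the mean), and 2.08 in DMSO against 3.11. The low DMSO counts make the size of the ratio less certain than its direction, as the pairwise range shows.

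SUCNR1 ranked 4th of 12727 tested human genes by log2 fold change. In the same fit 794 genes (6.24%) were upregulated and 691 (5.43%) downregulated (adjusted p below 0.01 with a change of more than 0.5 on the log2 scale). The log2 fold change was above 3 for 12 genes, above 2 for 55 and above 1 for 338. Ranked just above were KCNJ18, a potassium channel gene with a near-identical copy, KCNJ12, that could share its reads (4, 2 and 3 reads in DMSO, 59, 54 and 88 in BIX), ENPP6, a choline-releasing phosphodiesterase (0, 1 and 0 against 38, 18 and 24 reads), and EBI3, a cytokine subunit shared by IL-27 and IL-35 (0 reads in every DMSO library against 13, 10 and 21). Just below were the lncRNA LINC01226 (2, 0 and 0 against 11, 13 and 13 reads) and the cytokine IL13 (2, 2 and 4 against 47, 34 and 40 reads). All 5 had fewer reads than SUCNR1 in every BIX library, so that its rank rests on more counts than theirs.

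**Figure D2:**
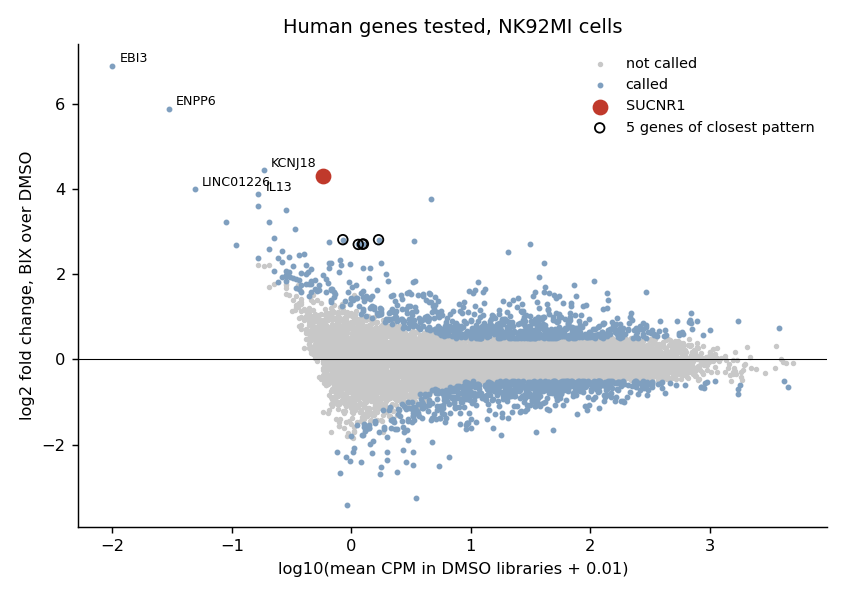
Log2 fold change (BIX over DMSO) of the 12727 tested human genes against their mean level in DMSO, on a log10 scale of CPM + 0.01. Called genes are blue, SUCNR1 is red at a log2 fold change of 4.31, and open circles mark the 5 genes whose pattern over the 6 libraries was closest to it, at 2.82 or below.

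Few genes starting so low reached a comparable level. Of the 1071 tested genes with a mean under 1 CPM in DMSO, 84 (7.84%) were upregulated and 6 downregulated. Only SUCNR1 and HLA-DQA1, an MHC class II chain with a close paralog, then passed a mean of 5 CPM in BIX, and HLA-DQA1 went from 0.839 ± 0.183 to 5.96 ± 0.767 CPM (SD, n = 3). Per kilobase of exon, SUCNR1 went from 0.135 to 2.72 CPM. It stood above 3.16% of the 12532 tested genes with a known length in DMSO and above 35.2% in BIX, a low to middling level. The filter on low counts keeps a gene with enough reads in either group alone. A gene this low in DMSO could thus be tested through its BIX level, as EBI3 was. That favours upregulated over downregulated genes among the 1071 and shapes the standing in DMSO. SUCNR1 was itself chosen for this level and increase.

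The pattern most like that of SUCNR1 was sought by the Euclidean distance between log2 CPM (prior count 2) over the 6 libraries. The 5 closest genes were HLA-DQA1 at 1.85, the cytokine subunit IL23A at 1.90, the serpin SERPINA11 at 1.95, the calcium/calmodulin-dependent kinase CAMK4 and, as the fifth, the antisense RNA PELO-AS1 at 2.49. All started at a higher level than SUCNR1, between 0.839 CPM (HLA-DQA1) and 1.68 CPM (PELO-AS1). Of them PELO-AS1 alone matched its BIX level, at 11.9 ± 1.43 CPM (SD, n = 3), with a log2 fold change of 2.81.

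Genes around SUCNR1 were then examined. The annotation places 36 other genes considered here within 1 Mb, of which 6 had a row of their own and 4 were tested. Of these 4, 0 were called, beside 11.7% of all tested genes. So few genes cannot be told apart from that share. MED12L, a Mediator kinase-module subunit whose gene spans the P2Y receptor cluster, changed by −0.39 on the log2 scale with an SE of 0.44, at 6 to 20 reads per library. GPR171, a G protein-coupled receptor of the same cluster, stood at 93.3 ± 7.30 CPM in DMSO and 102 ± 5.95 CPM in BIX (SD, n = 3; 0.13 on the log2 scale, edgeR adjusted p = 0.181). MBNL1, an RNA splicing regulator on the other side, had a log2 fold change of 0.15 (adjusted p = 0.0934) and its antisense RNA MBNL1-AS1 one of −0.25 (adjusted p = 0.211). IGSF10 was too low to be tested, with 0 reads in each DMSO library and 4, 1 and 2 in BIX. TMEM14EP was also not tested, at 12, 8 and 3 reads in DMSO and 1, 18 and 7 in BIX. The lncRNA AADACL2-AS1 runs antisense across SUCNR1, but 0 of its 7 exons overlap an exon of SUCNR1. The strand setting of the counting is not stated. AADACL2-AS1 and the human P2RY1, P2RY12, P2RY13 and P2RY14 had no row of their own among the human rows read here and were not analysed.

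**Figure D3:**
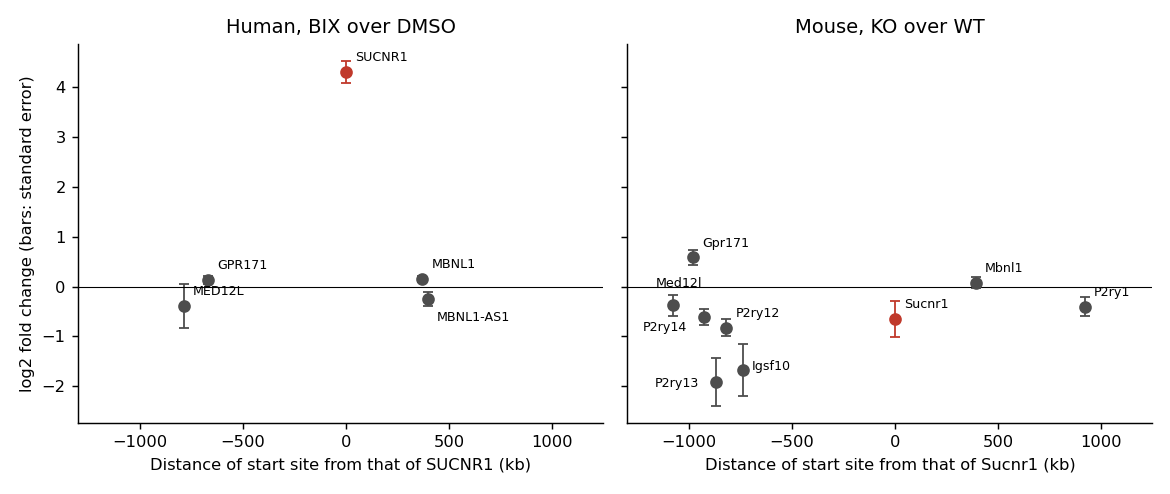
Log2 fold change of tested genes that lie within 1 Mb of SUCNR1 (human, BIX over DMSO) or Sucnr1 (mouse, KO over WT), against the distance between start sites in kb; bars are standard errors. In human SUCNR1 stands at 4.31 with its neighbours between −0.39 and 0.15, and in mouse the 8 neighbours run from −1.91 (P2ry13) to 0.59 (Gpr171).

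Among tested receptors for related ligands, SUCNR1 moved from the bottom to the middle. Its low place in DMSO largely follows from how SUCNR1 was chosen. The filter also removed receptors that were low in both groups, so the order describes the tested receptors only. Levels of the 15 tested receptors of the metabolite and P2Y lists, SUCNR1 included, were compared per kilobase. SUCNR1 was the 15th in DMSO (0.135 CPM per kb), next to GPR35, a receptor of tryptophan metabolites, at 0.246. In BIX it was the 6th (2.72 CPM per kb), between the proton-sensing receptor GPR65 at 8.25 and the ATP receptor P2RY11 at 2.30. By library, SUCNR1 ran from 0.112 to 0.167 CPM per kb in DMSO, below GPR35 in every library (0.228 to 0.258). In BIX it ran from 2.47 to 2.94 and met P2RY11 (2.07 to 2.47) at the edge of its range. Within each BIX library SUCNR1 was above P2RY11, though the 2 stood close, whereas GPR65 lay above both (7.69 to 9.23). The lysophosphatidylserine receptor P2RY10 led in BIX at 59.7 CPM per kb.

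None of the other receptors changed as much. Of 19 metabolite receptors, which sense protons, adenosine, bile acids, lactate or fatty acids, 7 were tested and 0 were called. GPR65 (0.45) and GPR132 (0.44) had positive log2 fold changes under the fold threshold with adjusted p of 0.00392 and 0.001 by edgeR. The adenosine receptor ADORA2A stood at 1.82 ± 0.483 CPM in DMSO and 0.852 ± 0.110 CPM in BIX (SD, n = 3) and missed the adjusted p threshold (0.0185). Of 19 P2Y and related receptors 7 were tested and 2 were called. CYSLTR2, a cysteinyl leukotriene receptor, rose from 5.39 ± 0.563 to 8.33 ± 0.592 CPM (SD, n = 3; log2 fold change 0.63, edgeR adjusted p = 0.00463), a call lost without DMSO library a, DMSO library b or BIX replicate 3 (adjusted p = 0.0187, 0.0262 and 0.0116). PTAFR, the receptor of platelet-activating factor, fell from 6.27 ± 0.299 to 3.20 ± 0.660 CPM (SD, n = 3; −0.97, adjusted p = 0.00117). The lysophosphatidylserine receptors P2RY10 (0.44, adjusted p = 0.000206) and GPR174 (−0.28, adjusted p = 0.0068) had the highest mean CPM and stayed under the fold threshold.

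The enzymes that make and use succinate were examined next, and none was called. All 16 members of the 18 listed that had a row were tested, and their median log2 fold change was 0.01, against −0.01 over all tested genes. The subunits of succinate dehydrogenase, which oxidizes succinate to fumarate, had log2 fold changes of 0.05 (SDHA), −0.33 (SDHB), −0.0024 (SDHC) and 0.14 (SDHD). SDHA held only 75 to 121 reads per library, and the SE of its change was 0.20. SDHB went from 79.8 ± 6.21 to 63.7 ± 6.15 CPM (SD, n = 3), with an adjusted p of 0.00818 but a change under the fold threshold. SUCLG1 (−0.27) and SUCLG2 (−0.34), subunits of the ligase that forms succinate, and OGDH (−0.31) and DLST (0.33), subunits of the 2-oxoglutarate dehydrogenase complex upstream of it, likewise had an adjusted p under 0.01 with changes under the threshold. The members with the highest mean CPM were OXCT1, a ketone-body enzyme that releases succinate (269 ± 4.47 CPM in DMSO and 310 ± 2.03 CPM in BIX, SD, n = 3), and DLD, the shared dehydrogenase subunit (165 ± 1.12 and 162 ± 4.58 CPM). Of 5 succinate transporters 3 were tested and 0 called. The monocarboxylate carrier SLC16A1 stood at 123 ± 5.85 and 164 ± 1.69 CPM (SD, n = 3; 0.41 on the log2 scale, adjusted p = 0.000185) and the mitochondrial dicarboxylate carrier SLC25A10 at 4.73 ± 0.166 and 3.08 ± 0.537 CPM (−0.62, adjusted p = 0.0218).

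Downstream of the receptor, 20 of 32 listed G proteins and effectors were tested, and 2 were downregulated and 0 upregulated. PLCB2, a phospholipase C that G proteins activate, fell from 77.3 ± 5.09 to 52.7 ± 3.16 CPM (SD, n = 3; −0.55, edgeR adjusted p = 0.000101), and without BIX replicate 1 it came to −0.50, under the fold threshold. ARRB2, an arrestin that ends receptor signalling, fell from 38.3 ± 0.570 to 23.3 ± 2.55 CPM (SD, n = 3; −0.72, adjusted p = 5.99e-05). The inhibitory G protein subunits that SUCNR1 can use were already abundant, GNAI2 at 399 ± 26.4 CPM and GNAI3 at 202 ± 1.75 CPM in DMSO (SD, n = 3). GNAI2 came to 339 ± 29.7 CPM (−0.24, adjusted p = 0.0231) and GNAI3 to 206 ± 5.32 CPM (0.03, adjusted p = 0.726) in BIX. GNB1, a beta subunit, and GRK2, a receptor kinase, had the highest mean CPM of the list, with log2 fold changes of 0.11 (adjusted p = 0.16) and −0.24 (adjusted p = 0.0146).

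Succinate that accumulates inside the cell is known to inhibit the hydroxylases of HIF-1, and these genes formed a further list. Of 17 genes 12 were tested, and 1 was upregulated and 1 downregulated. NDRG1, a hypoxia-induced gene, rose from 10.1 ± 0.914 to 19.3 ± 0.950 CPM (SD, n = 3; 0.94, edgeR adjusted p = 2.91e-05). EGLN2, a HIF prolyl hydroxylase, fell from 11.5 ± 1.48 to 7.61 ± 0.853 CPM (SD, n = 3; −0.59, adjusted p = 0.00563), a call lost without BIX replicate 1, DMSO library b or DMSO library c (adjusted p = 0.0339, 0.0253 and 0.0346). HIF1A had a log2 fold change of 0.39 (adjusted p = 0.00051) and the glycolytic enzyme LDHA one of −0.01 (adjusted p = 0.871). Over the 6 lists of receptors, enzymes, transporters, effectors and HIF genes, 6 of 65 tested members were called (9.23%), against 11.7% of all tested genes.

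**Figure D4:**
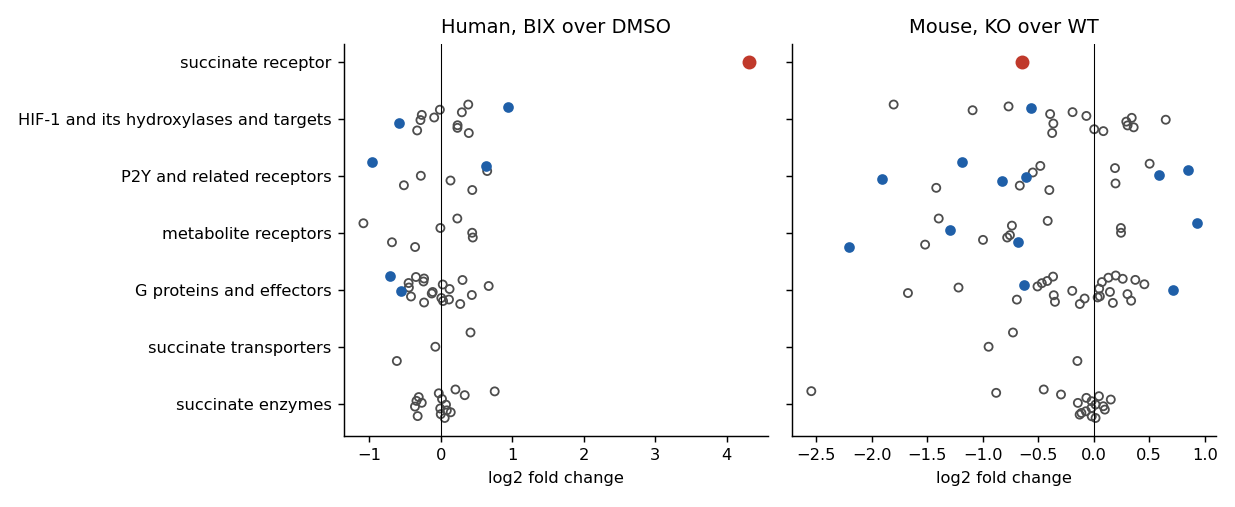
Log2 fold change of each tested member of the 6 lists beside that of the succinate receptor, for human (BIX over DMSO) and mouse (KO over WT). Filled blue points passed an adjusted p of 0.01 (human) or 0.05 (mouse) with a change beyond 0.5; in human the receptor, at 4.31, is far from every list member, which lie between −1.09 and 0.94.

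The RNA of the inhibitor's target was also measured. EHMT2 stood at 57.1, 61.6 and 54.3 CPM in DMSO libraries a, b and c and at 40.4, 39.3 and 35.8 CPM in BIX replicates 1, 2 and 3. On the log2 scale it fell by 0.58 (SE 0.08; edgeR adjusted p = 0.000101). Its partner WIZ fell by 0.50 (adjusted p = 0.000147), at the fold threshold. It was under that threshold in 6 of the alternative fits, with −0.45 without DMSO library a as the smallest change. EHMT1, which pairs with EHMT2, had a log2 fold change of −0.17 (adjusted p = 0.0664), the cofactor ZNF644 one of 0.37 (adjusted p = 0.00104) and EZH2, the H3K27 methyltransferase, one of 0.03 (adjusted p = 0.719). All 12 NK cell markers of the list had a row in the human table and none was at 0 throughout. Their sum lay between 3934 and 4291 CPM in DMSO and between 4495 and 5511 CPM in BIX. The members did not move together: of the 11 tested, 7 had positive and 4 negative log2 fold changes, with a median of 0.04. The 6 macrophage and monocyte markers with a row summed to 4.74 to 6.63 CPM in DMSO and 9.92 to 11.2 CPM in BIX, and of the 3 that were tested 2 had positive and 1 a negative log2 fold change. The sums of B cell markers (13.4 to 14.4 CPM in DMSO and 24.2 to 26.3 in BIX) and T cell markers (585 to 605 and 607 to 700 CPM) were higher in all BIX libraries, and that of dendritic cell markers (75.6 to 83.3 and 61.1 to 64.5 CPM) was lower. Neutrophil, platelet and erythroid sums overlapped. The part of these marker differences in the SUCNR1 values was not tested.

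In mouse splenic NK cells, Sucnr1 was present in every library and no difference between KO and WT passed the test. In GRCm38 it lies at chr3:60081869-60087566 on the plus strand (ENSMUSG00000027762.6), with 3 exons over its annotated transcripts and a joint exon length of 1640 bp. WT replicates 1, 2 and 3 held 150, 140 and 183 Sucnr1 reads, and KO replicates 1, 2 and 3 held 180, 70 and 87. In CPM these were 4.05, 5.43 and 4.92 in WT and 4.90, 1.89 and 2.39 in KO. KO replicates 2 and 3 lay below all WT libraries, whereas KO replicate 1 lay above WT replicate 1, so that the groups overlapped. The means were 4.80 ± 0.699 CPM in WT and 3.06 ± 1.61 CPM in KO (SD, n = 3), which gave a change of −0.65 on the log2 scale (SE 0.36; edgeR adjusted p = 0.228). It came to −1.17 without KO replicate 1 (adjusted p = 0.0371) and to −0.39 without KO replicate 2 (adjusted p = 0.502).

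The spread within KO was larger than counting alone gives, with an SD of 59.2 reads against 10.6. In WT the SD was 22.5 reads against 12.6, and WT replicate 2 was the shallowest library at 25891680 reads, the others reaching 36384416 to 37438868. The ratio of a KO to a WT library ran from 0.347 to 1.21 over the 9 pairs. Ehmt2, the targeted gene, stood at 275, 284 and 285 CPM in WT replicates 1, 2 and 3 and at 171, 143 and 137 CPM in KO replicates 1, 2 and 3, a log2 change of −0.91 (SE 0.10; edgeR adjusted p = 0.0162). KO replicate 1 was thus the highest of the KO libraries in both genes. Ehmt1 had a log2 fold change of 0.09 (adjusted p = 0.572), Ezh2 one of −0.23 (adjusted p = 0.116) and Wiz one of 0.02 (adjusted p = 0.931).

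At the thresholds used in human, edgeR called 0 of 13189 mouse genes (0% in either direction). At an unadjusted p under 0.05, 2080 were higher (15.8%) and 2639 lower (20%), and DESeq2 called 401 higher (2.44%) and 1098 lower (6.67%) at the thresholds of human. Sucnr1 was not called by DESeq2 either (−0.66, adjusted p = 0.194). The human and mouse comparisons differ in species, agent and cell source and were fitted separately, and the difference between them was not tested.

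Sorted splenic cells can hold other cell types, and markers of several moved with the genotype. All 13 macrophage and monocyte markers were tested and had negative log2 fold changes, with a median of −1.69, and 7 of them passed a relaxed adjusted p of 0.05 with the same fold limit (2.82% of all tested genes did so upwards and 6.69% downwards). Summed, they reached 7170, 2953 and 5520 CPM in WT replicates 1, 2 and 3 and 2852, 1602 and 2131 CPM in KO replicates 1, 2 and 3. The order of the KO libraries in this sum was that of their Sucnr1 level, whereas in WT replicate 2 had the lowest sum and the highest Sucnr1 level. The 12 NK cell markers summed to 5586 to 8717 CPM in WT and 9367 to 11622 CPM in KO, without overlap. In WT and KO respectively, B cell (463 to 1310 against 84.3 to 425 CPM), platelet (1575 to 2479 against 1272 to 1365 CPM) and erythroid markers (225 to 370 against 104 to 135 CPM) were also higher in all WT libraries than in any KO library. The sums of dendritic cell (1035 to 1372 against 1097 to 1365 CPM), neutrophil (157 to 1263 against 29.2 to 176 CPM) and T cell markers (139 to 235 against 92.2 to 194 CPM) overlapped. Log2 fold changes were nevertheless negative for 6 of 7 tested dendritic cell, 6 of 6 neutrophil and 4 of 6 T cell markers. Their medians were −0.85, −3.11 and −0.67. KO replicate 1 also held the highest KO sum of neutrophil (176, 29.2 and 30.4 CPM in KO replicates 1, 2 and 3), B cell (425, 103 and 84.3 CPM), T cell (194, 92.2 and 94.3 CPM) and platelet markers (1365, 1324 and 1272 CPM). By contrast, KO replicate 1 held the lowest KO sum of dendritic cell markers (1097, 1365 and 1257 CPM in the same order) and of NK cell markers. For erythroid markers KO replicate 2 was the highest (133, 135 and 104 CPM). The part of these cells in the Sucnr1 values was not tested, and fewer cells of a type and less RNA per cell cannot be told apart in such libraries.

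**Figure D5:**
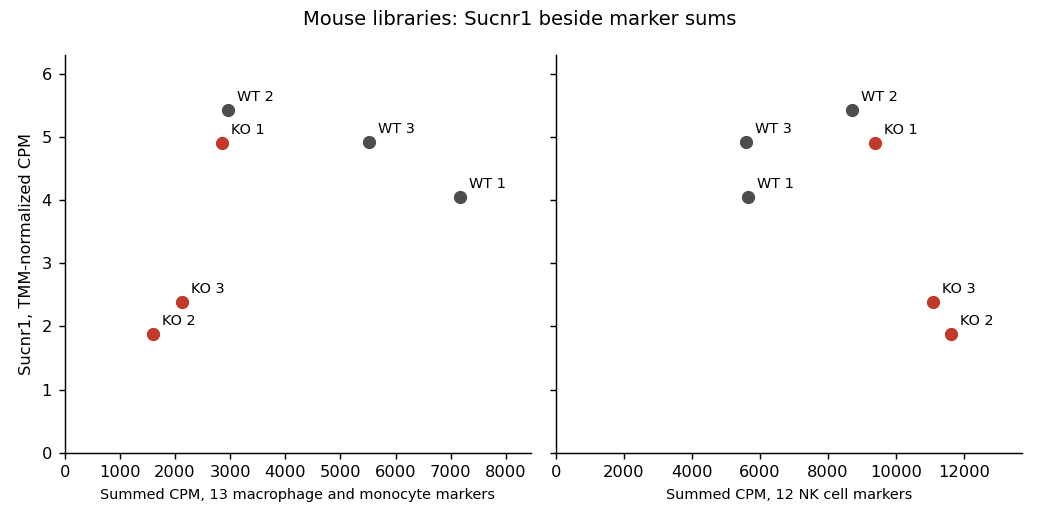
Sucnr1 level in the 6 mouse libraries (TMM-normalized CPM) against the summed CPM of 13 macrophage and monocyte markers (left) and of 12 NK cell markers (right); numbers are replicates. KO 1 and WT 2, at 4.90 and 5.43 CPM of Sucnr1, have nearby macrophage sums of 2852 and 2953 CPM.

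Among 28 tested mouse receptors of both lists, Sucnr1 was the 19th in WT at 2.93 CPM per kb and the 21st in KO at 1.86 CPM per kb. Its neighbours in the WT order were Cysltr2 at 4.12 and P2ry1 at 2.79 CPM per kb. By library, Sucnr1 in WT (2.47 to 3.31 CPM per kb) overlapped P2ry1 (2.37 to 3.60) but not Cysltr2 (3.67 to 4.94). In KO its range of 1.15 to 2.98 CPM per kb took in those of P2ry1 (1.86 to 2.36), Gpr4 (1.55 to 2.35) and P2ry14 (1.49 to 1.65). Of the 13 metabolite receptors tested, 1 was higher and 3 lower at the relaxed adjusted p of 0.05 and the same fold limit, which 2.82% of all tested genes passed upwards and 6.69% downwards. Over the 6 lists, 4 of 91 tested members were higher (4.4%) and 9 lower (9.89%) at this threshold. The higher one was the adenosine receptor Adora2a (70.6 ± 11.1 CPM in WT and 134 ± 8.28 in KO, SD, n = 3; 0.93, edgeR adjusted p = 0.0215). The lower ones were Hcar2, the receptor of ketone bodies and niacin (22.2 ± 12.9 CPM in WT and 4.83 ± 2.74 in KO, SD, n = 3; −2.20, adjusted p = 0.0481), the proton sensor Gpr4 (−1.29, adjusted p = 0.0318) and the short-chain fatty acid receptor Ffar2 (−0.68, adjusted p = 0.0473). The proton sensor Gpr132 was the most abundant of the list, with a log2 fold change of 0.24 (adjusted p = 0.0955).

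The genes next to Sucnr1 include the mouse P2Y cluster, and 8 of the 13 within 1 Mb that had a row and are considered here were tested. The ADP receptors P2ry12 (−0.83, edgeR adjusted p = 0.0364) and P2ry13 (−1.91, adjusted p = 0.0463) and the UDP-glucose receptor P2ry14 (−0.61, adjusted p = 0.0493) were lower at the 0.05 threshold, which 6.69% of all tested genes passed downwards. P2ry13 stood at 93.4, 23.9 and 63.4 CPM in WT replicates 1, 2 and 3 and at 23.0, 11.2 and 13.9 CPM in KO, the same order of libraries as in the macrophage and monocyte sum. Gpr171, inside the cluster, was higher (53.6 ± 10.9 CPM in WT and 80.4 ± 5.29 in KO, SD, n = 3; 0.59, adjusted p = 0.046). Med12l (−0.37, adjusted p = 0.243), Igsf10 (−1.68, adjusted p = 0.0679), Mbnl1 (0.08, adjusted p = 0.609) and P2ry1 (−0.40, adjusted p = 0.184) did not pass. Aadac, Aadacl2 and Gm8298 were at 0 in all 6 libraries. By counting error alone, that allows an expected total of up to about 3 reads over the 6 libraries together. Gm5538 (2, 8 and 0 reads in KO replicates 1, 2 and 3) and C130079G13Rik (0, 0 and 4 reads) were at 0 in WT and were not tested. The other called members of the 14 tested P2Y and related receptors were Gpr174 (0.85, adjusted p = 0.0239) and Ptafr (−1.19, adjusted p = 0.0394), giving 2 higher and 4 lower of 14, beside 2.82% and 6.69% of all tested genes.

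Of 18 succinate enzymes tested in mouse, 0 passed the 0.05 threshold, with a median log2 fold change of −0.04 against 0.01 over all tested genes. Ogdh (0.15) and Sdha (0.02) had the highest mean CPM. Acod1, which makes itaconate, an inhibitor of succinate dehydrogenase, varied most, at 2.75, 0.931 and 11.5 CPM in WT replicates 1, 2 and 3 and 0.979, 0.700 and 0.932 CPM in KO (−2.54, edgeR adjusted p = 0.0723). Of 3 tested transporters 0 passed, with Slc25a10 at −0.15 and Slc16a1 at −0.73 (adjusted p = 0.256 and 0.0793). Among 27 tested G proteins and effectors, the phospholipase Plcb4 was higher (0.72, adjusted p = 0.0279) and the adenylyl cyclase Adcy6 lower (−0.63, adjusted p = 0.0416). Arrb1 (−0.37, adjusted p = 0.0493) and the receptor kinase Adrbk2 (−0.42, adjusted p = 0.0459) stayed under the fold threshold. Those with the highest mean CPM, Gnai2 and the receptor kinase Adrbk1, had log2 fold changes of −0.13 and 0.07 (adjusted p = 0.398 and 0.563), and Adcy7 one of 0.46 (adjusted p = 0.0557). Of 16 HIF genes only Ndrg1 passed (−0.56, adjusted p = 0.0472), the opposite sign of the human change, while Hif1a (−0.37), Egln2 (0.30) and Pdk1 (−0.39) had adjusted p under 0.05 with changes under the fold threshold and Ldha had a log2 fold change of −0.19 (adjusted p = 0.178).

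By the same distance as in human, the 5 mouse genes whose pattern was closest to that of Sucnr1 were Zfyve28 at 0.458, Car9 at 0.481, Cdhr3 at 0.548, Mrc2 at 0.636 and Fndc7 at 0.682. Car9, a carbonic anhydrase, stood at 4.72, 4.38 and 4.84 CPM in WT replicates 1, 2 and 3 and at 5.22, 2.26 and 2.60 CPM in KO replicates 1, 2 and 3, with KO replicate 1 the highest. Zfyve28 (4.90, 2.26 and 2.52 CPM in KO) and Cdhr3 (4.54, 1.51 and 2.30 CPM in KO) had the same order of KO replicates. The log2 fold changes of the 5 lay between −0.75 (Cdhr3) and −0.47 (Car9), and 0 passed an adjusted p under 0.05. Such likeness was largely set by choosing the genes for their closeness to Sucnr1 over these same libraries.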

How the data were processed

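RNA-seq was analysed from 2 tables of raw counts per gene symbol, 1 per species. The authors trimmed reads with fastp 0.23.4, aligned them with STAR 2.7.11b to GRCh38/hg38 or GRCm38/mm10, counted them with HTSeq 2.0.3 and deposited the raw counts without normalization. The annotation release and the strand setting of counting are not given in the sources used here. Each table was fitted separately in R 4.3.3 with edgeR 4.0.16 (TMM, filterByExpr, quasi-likelihood test, two-sided, Benjamini-Hochberg adjustment over all genes tested), and a gene was called when its adjusted p was below 0.01 and its change beyond 0.5 on the log2 scale. DESeq2 1.42.0, other scalings and filters, an adjusted p under 0.05, the replicate number as a block and each library left out in turn were alternatives. The procedure was tested on simulated data. CPM were divided by the joint exon length (GENCODE) for levels between genes.

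SUCNR1, Sucnr1 and the gene lists were chosen with earlier results of these data known. Named were the targeted genes, genes within 1 Mb, list members that were called (in mouse, adjusted p under 0.05), the 2 members of each list with the highest mean CPM (not divided by length), the genes ranked beside SUCNR1 (2 on either side, with EBI3, also above it, added) and the 5 of closest pattern. Other enzymes, receptors and G proteins were named for their role after their values were seen. Some genes are not reported here and were left out of the lists and of the counts of nearby genes. Replicates of a group differed by more than counting error.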

Additional observations from a re-analysis of the deposited data

How the results depend on the processing

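The log2 fold change of SUCNR1 lay between 4.19 and 4.49 over 12 alternatives, both ends with a DMSO library left out. That of Sucnr1 stayed negative over 13 alternatives, from −1.17 to −0.39. None of the 12 that had a test passed an adjusted p of 0.01, and that without KO replicate 1 passed 0.05 (adjusted p = 0.0371). The number of mouse genes called depended on the choice: it was 0 in the fit reported, 34 with no filter on low counts, 1499 with DESeq2, 1254 at an adjusted p under 0.05, and from 0 to 1163 with each library left out, the latter without WT replicate 2. Mouse list members called were 0, and 14 with DESeq2, 13 at an adjusted p under 0.05 and from 0 to 15 with each library left out (15 without WT replicate 2). With the replicate number as a block, 819 mouse genes and 8 list members were called and Sucnr1 came to −0.75 (adjusted p = 0.171). Whether same-numbered KO and WT libraries shared more than a number is not settled by these values. Their deviations correlated at 0.28, 0.35 and −0.19, and not every library correlated best with its own number, but the libraries per group are too few to decide. The cause of the differences in calls between these fits was not tested. No paired analysis was possible because, in the human table, the numbered control columns cannot be tied to numbered DMSO samples. In human 1163 to 1578 genes were called with a library left out, against 1485. Over 90 other named genes and 1026 refits, 961 kept direction and side of the threshold, 36 gained a call, 15 lost one and 14 changed sign. The sign changes were all of values near 0. SDHC came to 0.0033 with DESeq2 size factors, 0.0025 with no filter and 0.0023 with DESeq2. With a library left out, SDHC ran from −0.031 to 0.025, SDHA from −0.13 to 0.19, LDHA from −0.044 to 0.026, Sdha from −0.051 to 0.048 and Wiz from −0.068 to 0.11. WIZ came to −0.50 with DESeq2 size factors, no filter and DESeq2, just under the fold threshold. In human the low DMSO counts of SUCNR1 limit the precision of its ratio.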
